A study of Homo sapiens with 6 samples.

Results

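The BCL2 family of apoptosis regulators was examined in RPMI-8402 cells, an established human line from a T-cell acute lymphoblastic leukaemia (T-ALL), by following 10 named genes of the 14491 named genes that could be tested. The genes were chosen by family membership, with earlier results of these data known. They were the 4 anti-apoptotic members BCL2, BCL2L1, MCL1 and BCL2A1, the 2 effectors BAX and BAK1, and the 4 BH3-only members BCL2L11, PMAIP1, BBC3 and BID. All 10 genes had at least 1 probe that could be tested, and 15 of their 16 probes stood well above background on each of the 6 arrays. The remaining probe, A_23_P152002 for BCL2A1, was not well above background on any array and is given no difference.

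The cells had been transduced with lentivirus carrying a control short hairpin RNA (shRNA), an shRNA against GATA3 (shGATA3) or an shRNA against TCF7, which encodes TCF1 (shTCF1). All groups were sorted for the EGFP marker at 48 h, so that the controls had gone through transduction and sorting as well. Each group had 2 arrays, described in the study as independent experiments although the sample labels only number them, so p-values measure the spread between arrays that may share more than the labels say. The line is 1 leukaemia and each factor was targeted in 1 shRNA group, so effects of a hairpin and of its target cannot be told apart.

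Proteins of this family decide whether the mitochondrial outer membrane is opened. BAX and BAK1 form the openings, the anti-apoptotic proteins hold them and their activators in check, and the BH3-only proteins carry the death signal to both. In developing T cells and in T-cell leukaemia, survival depends on this balance, which is set partly through transcript levels and partly through cleavage, phosphorylation and protein turnover that an array does not record.

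The 2 members that were called lower with shTCF1 were BID and BCL2A1, and the sequences upstream of their starts are shown because TCF1 binds DNA. RefSeq windows (GRCh38.p14) of 250 bases before an annotated start were held for 9 of the 10 genes, 14 windows in all, and were searched on both strands for 2 TCF words, CTTTGA and also CTTTGT, and for 4 GATA words, which were AGATAA together with AGATAG, then TGATAA together with TGATAG. The BID window shown is 1 of 5 held for that gene. It lies at chr22:17774043-17774292 and that for BCL2A1 at chr15:79971197-79971446, both on the minus strand, and both are written 5′ to 3′ in the direction of the gene with any word in capitals.
BID: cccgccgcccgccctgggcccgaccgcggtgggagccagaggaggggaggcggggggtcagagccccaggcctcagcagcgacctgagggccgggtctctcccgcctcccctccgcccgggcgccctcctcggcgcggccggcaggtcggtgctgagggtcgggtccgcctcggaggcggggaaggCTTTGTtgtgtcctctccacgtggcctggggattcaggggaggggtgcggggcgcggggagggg
BCL2A1: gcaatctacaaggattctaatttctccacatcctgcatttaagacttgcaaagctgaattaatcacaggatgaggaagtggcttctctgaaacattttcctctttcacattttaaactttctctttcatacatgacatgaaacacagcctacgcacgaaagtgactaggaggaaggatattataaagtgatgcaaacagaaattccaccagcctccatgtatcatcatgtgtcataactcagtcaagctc
The BID window shown held CTTTGT starting 64 bases before its start. An overlapping window held the same site, 123 bases before another BID start, and the other 3 of the 5 BID windows held no TCF word. The BCL2A1 window held none of the 6 words. TCF words were present in 4 of the 14 member windows, upstream of BID, BCL2L1 and BAK1, and in 22.8% of all 35116 windows. GATA words were present in 0 of the 14 member windows and in 22.3% of all windows. These are matches of letters and were not tested for binding.

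On each array 51.0% to 56.2% of the 57176 probes stood well above background, with a correlation across probes of 0.993 to 0.994 within groups and 0.980 to 0.987 between groups, and 0 spots were saturated. Of 11 T-lineage markers 10 were measured well above background throughout. Of the other lists 3 of 5 B-lineage, 3 of 5 myeloid, 3 of 4 erythroid and 4 of 6 fibroblast or kidney markers on the array were above background too, with HBB, COL1A2 and COL3A1 not above it on any array. The summed signal of the T-lineage markers was 81400 to 83900 on the control arrays, 114000 to 133000 on arrays labelled shGATA3 and 79600 to 96000 on arrays labelled shTCF1, where signal is 2 to the power of the normalized log2 intensity, and the part of this in the results was not tested. All 6 arrays lay on 1 slide, the controls in slide row 2 and all shRNA arrays in slide row 1, so place on the slide and shRNA against control cannot be told apart. The 75th percentile of the intensity before normalization was 269.6 and 287.4 on the control arrays and 165.3 to 178.8 on the 4 shRNA arrays, and its part in the results was not tested. Both TCF7 probes were lower on the arrays labelled shTCF1 (log2 differences of -1.31 and -1.48, adjusted p 0.00393 and 0.00462 in limma). The single GATA3 probe showed no called difference in the group labelled shGATA3 (log2 difference -0.050, 95% interval -0.31 to 0.21, adjusted p 0.795 in limma). Directions for that group therefore refer to its label and not to a measured fall of GATA3 transcript.

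On the arrays labelled shTCF1, 2 of the 10 members were called lower than control and none was called higher. BID, which links death receptor signalling to mitochondria, fell to 61.1% of control and BCL2A1, an anti-apoptotic member also known as BFL1, fell to 71.2% of control. In bulk samples, fewer cells with a transcript and less of it per cell cannot be told apart. Over all named genes 16.2% were called in this comparison, 9.99% lower and 6.26% higher. The groups did not overlap for 8 of the 10 members, against 66.9% of all tested probes. The median log2 difference of the members was -0.044, beside -0.048 for all named genes. Of the 15 member probes 3 were called, against 16.9% of all tested probes. With 1 array left out, 0 members were called without either control array or without shTCF1 replicate 1, and 1 without shTCF1 replicate 2.

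On the arrays labelled shGATA3, 0 of the 10 members were called by limma through their brightest probe, although 3 had an unadjusted p under 0.05, and 6.93% of all named genes were called, 2.79% higher and 4.14% lower. Those 3 were MCL1, BAX and BCL2A1, all lower than control by their group means. The groups did not overlap for 6 members, against 60.2% of all tested probes. The median log2 difference was -0.31 for the 10 members and -0.033 for all named genes. By role the medians were -0.31 for the anti-apoptotic members, -0.81 for the effectors and 0.12 for the BH3-only members. Without shGATA3 replicate 2 the median was -0.11 for the 10 members, -0.36 for the anti-apoptotic members, -0.23 for the effectors and 0.077 for the BH3-only members. Without shGATA3 replicate 1 these medians were -0.24, -0.24, -1.40 and 0.029 in that order. Of the 15 member probes 1 was called, a dimmer probe of BCL2L11 that is described with its gene, against 6.84% of all tested probes. The member count was 0 without either shTCF1 array. A fit without a control or an shGATA3 array holds 1 array in that group and takes its spread from the other groups.

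In the direct comparison of the 2 shRNA groups, 1 of the 10 members, BID, was called, higher on the arrays labelled shGATA3, where 6.58% of all named genes were called, 3.75% higher and 2.83% lower. Both BID probes were called and no other member probe was, against 6.18% of all tested probes. The groups did not overlap for 4 members, against 52% of all tested probes. With 1 array left out the BID difference at the brighter probe was 0.66 to 0.87, and its call was not kept in all of these fits, as given with the gene. Both comparisons with control used the same 2 control arrays, so they are not independent of each other.

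**Figure D1:**
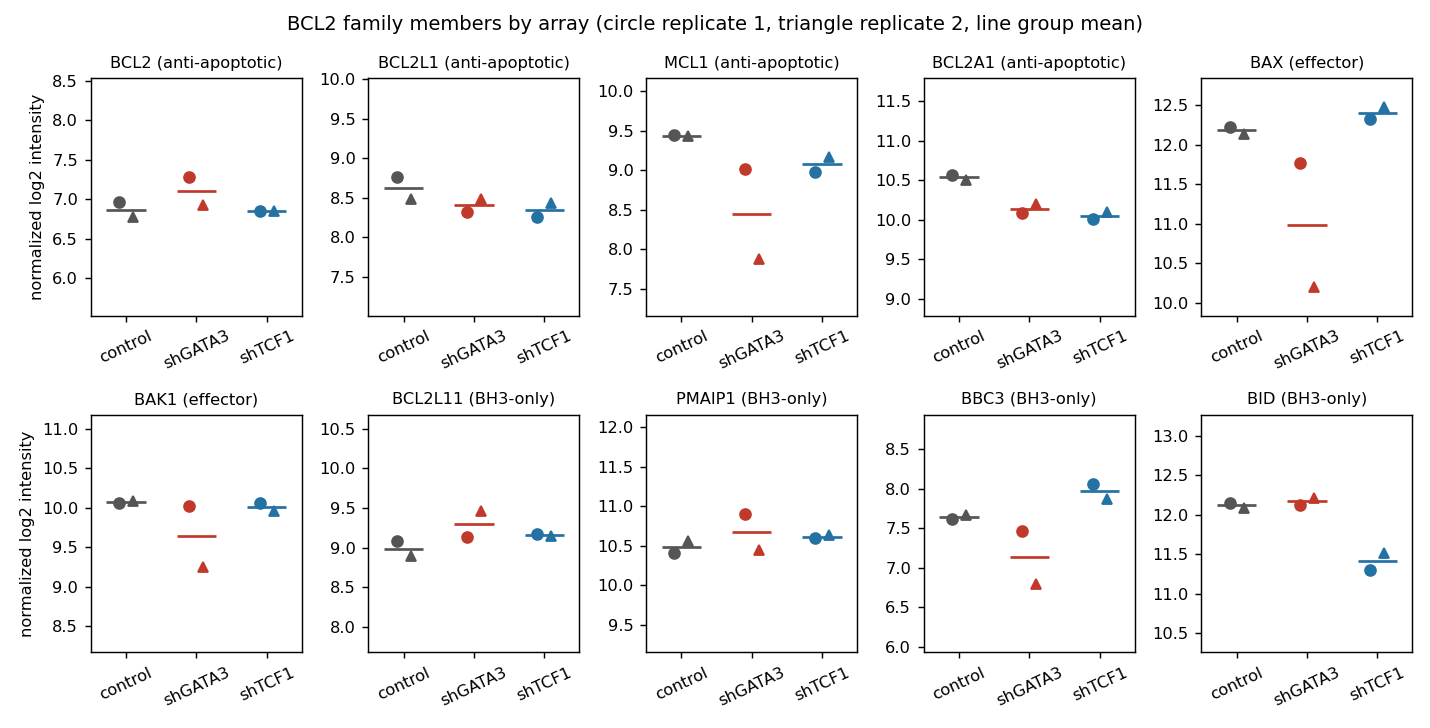
Normalized log2 intensity (y axis, 1 panel and scale per gene, each spanning the same log2 range) of the brightest probe of each member in the control, shGATA3 and shTCF1 groups (x axis). Circles are replicate 1, triangles replicate 2 and lines group means of 2 arrays. BID stands lower on both arrays labelled shTCF1, and MCL1, BAX, BAK1 and BBC3 differ between the 2 arrays labelled shGATA3.

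**Figure D2:**
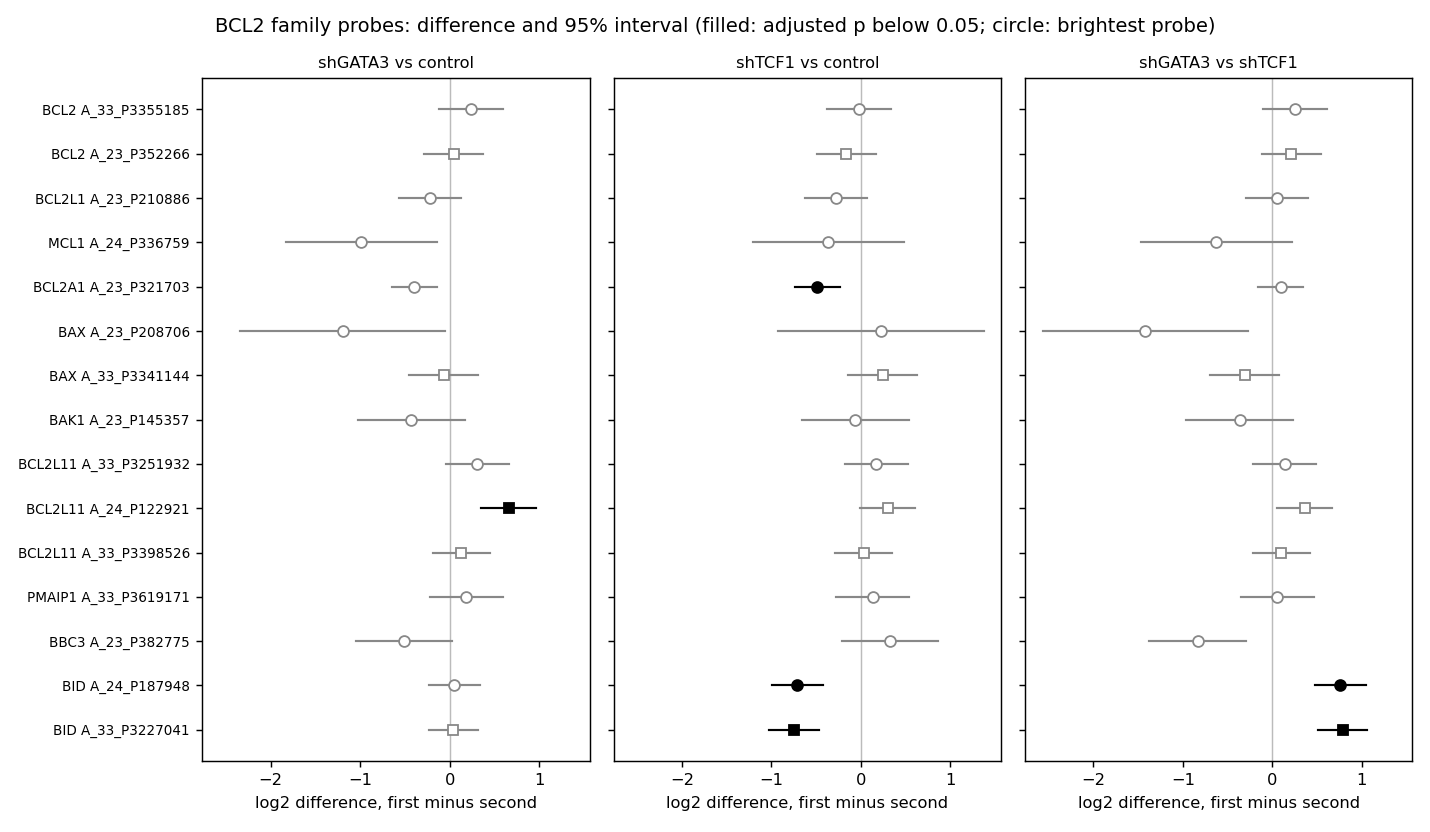
Log2 difference (x axis) with its 95% interval for each of the 15 tested member probes (y axis) in the 3 comparisons, from limma over all 6 arrays. Filled symbols have an adjusted p below 0.05 and circles mark the brightest probe of a gene. Both BID probes are filled in 2 panels, with differences of -0.71 and -0.75 for shTCF1 against control.

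Among the anti-apoptotic members, BCL2A1 was the one called. Its probe A_23_P321703 read 10.57 and 10.51 on the control arrays, 10.09 and 10.19 on arrays labelled shGATA3 and 10.01 and 10.09 on those labelled shTCF1. All 4 shRNA arrays thus lay below both control arrays, and the shRNA groups overlapped each other. The log2 difference from control was -0.49 for shTCF1 (SE 0.10, 95% interval -0.74 to -0.24, adjusted p 0.0297 in limma) and -0.40 for shGATA3 (SE 0.10, 95% interval -0.65 to -0.15, adjusted p 0.0761 in limma), the latter not called. Between the shRNA groups the difference was 0.093, with a 95% interval of -0.16 to 0.34. The shTCF1 call was lost in 4 of the 6 fits that left out 1 array, those without control replicate 1 or 2 or without shTCF1 replicate 1 or 2, with a difference of -0.53 to -0.45 and an adjusted p of up to 0.157 in limma.

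MCL1, a short-lived anti-apoptotic protein that restrains BAK1, had the widest spread of group means of its class. Its probe A_24_P336759 read 9.44 and 9.43 on the control arrays, 9.01 and 7.88 on arrays labelled shGATA3 and 8.98 and 9.17 on those labelled shTCF1. Every shRNA array lay below both control arrays, but the 2 arrays labelled shGATA3 stood 1.13 apart. With that spread the difference of -0.99 for shGATA3 (SE 0.35, 95% interval -1.83 to -0.14) was not called (adjusted p 0.141 in limma). The difference was -1.55 without shGATA3 replicate 1 and -0.42 without shGATA3 replicate 2, in fits that held 1 array labelled shGATA3. With all arrays it was called after normexp background correction (-0.86, adjusted p 0.0419 in limma). For shTCF1 the difference was -0.36, with a 95% interval of -1.21 to 0.48. That interval uses 1 spread over all groups, whose SDs were 0.0041 for control, 0.80 for shGATA3 and 0.13 for shTCF1. Its width therefore takes in the gap between the arrays labelled shGATA3.

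BCL2 and BCL2L1, which encodes BCL-XL, were called in none of the comparisons. BCL2 read 6.96 and 6.78, 7.28 and 6.93, and 6.84 and 6.85 on the control, shGATA3 and shTCF1 arrays at A_33_P3355185. The groups overlapped in both comparisons with control, where the differences were 0.24 (95% interval -0.12 to 0.59) for shGATA3 and -0.024 (95% interval -0.38 to 0.33) for shTCF1. The second BCL2 probe, A_23_P352266, read 6.74 and 6.71 on the control arrays, 6.87 and 6.67 on those labelled shGATA3 and 6.42 and 6.70 on those labelled shTCF1, and it differed from control by 0.046 and -0.17. BCL2L1 at A_23_P210886 read 8.76 and 8.49 on the control arrays, 8.32 and 8.49 on those labelled shGATA3 and 8.26 and 8.44 on those labelled shTCF1. It was thus below both control arrays on both arrays labelled shTCF1, by a mean of -0.27 with a 95% interval of -0.62 to 0.073. For shGATA3 the BCL2L1 difference was -0.22, with a 95% interval of -0.57 to 0.13.

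The effectors depended on which array labelled shGATA3 was read. BAX at A_23_P208706 read 12.23 and 12.13 on the control arrays, 11.77 and 10.19 on arrays labelled shGATA3 and 12.33 and 12.48 on those labelled shTCF1. Both arrays labelled shGATA3 lay below all other arrays, and they stood 1.58 apart. The difference from control was -1.20 (SE 0.47, 95% interval -2.34 to -0.049, adjusted p 0.175 in limma) and was not called. Without shGATA3 replicate 1 it was -1.98 and called (adjusted p 0.0190 in limma), and without shGATA3 replicate 2 it was -0.41. Against shTCF1 the BAX difference was -1.42 (95% interval -2.57 to -0.27, adjusted p 0.143 in limma).

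The second BAX probe gave other values. A_33_P3341144 read 6.75 and 6.62 on the control arrays, 6.80 and 6.43 on those labelled shGATA3 and 6.82 and 7.03 on those labelled shTCF1. Its difference for shGATA3 was -0.067, with a 95% interval of -0.45 to 0.32 that overlaps the interval of the brighter probe in part. For shTCF1 the 2 BAX probes differed from control by 0.22 and 0.24, neither of them called, and at both probes the arrays labelled shTCF1 lay above both control arrays.

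BAK1 at A_23_P145357 read 10.05 and 10.09 on the control arrays, 10.03 and 9.25 on those labelled shGATA3 and 10.05 and 9.96 on those labelled shTCF1. A single array, shGATA3 replicate 2, stood apart from the other 5. The difference for shGATA3 was -0.43 (95% interval -1.03 to 0.17, adjusted p 0.315 in limma). It was -0.82 without shGATA3 replicate 1 and -0.044 without shGATA3 replicate 2. For shTCF1 the BAK1 difference was -0.065, with a 95% interval of -0.66 to 0.53.

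**Figure D3:**
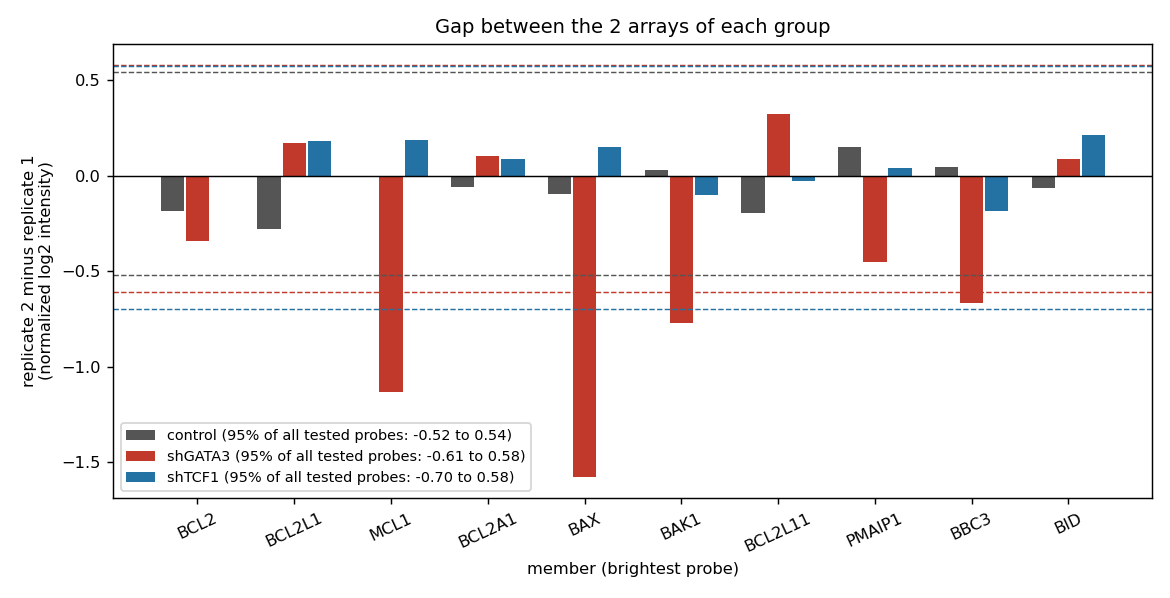
Replicate 2 minus replicate 1 (y axis, normalized log2 intensity) for the brightest probe of each member (x axis) in each of the 3 groups. Dashed lines enclose the central 95% of all tested probes in the group of the same colour. MCL1, BAX, BAK1 and BBC3 lie below the lower line for shGATA3 (-0.61), and all other bars lie within the lines of their group.

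The gap between the 2 arrays labelled shGATA3 was therefore set beside that of all tested probes. Replicate 2 was lower than replicate 1 by -1.58 for BAX, -1.13 for MCL1, -0.77 for BAK1 and -0.67 for BBC3. A value as low or lower was found at 0.061%, 0.299%, 1.24% and 1.89% of all tested probes in that pair. Over all tested probes an absolute gap above 0.5 was found at 8.02% in this pair, 5.61% in the control pair and 8.22% in the shTCF1 pair. The same 4 members had gaps between -0.19 and 0.19 in the control and shTCF1 pairs. As the fit shares 1 spread over the groups, the shGATA3 gaps also widen the intervals of these 4 members for shTCF1 against control. What set the 2 arrays labelled shGATA3 apart at these genes was not tested.

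Of the BH3-only members, BID had the clearest difference and 2 probes that moved together. A_24_P187948 read 12.15 and 12.09 on the control arrays, 12.13 and 12.22 on those labelled shGATA3 and 11.30 and 11.52 on those labelled shTCF1. A_33_P3227041 read 12.09 and 12.06, 12.03 and 12.20, and 11.26 and 11.39 in the same order. At both probes the arrays labelled shTCF1 lay below the other 4. The log2 differences from control were -0.71 (SE 0.12, 95% interval -0.995 to -0.43, adjusted p 0.0160 in limma) and -0.75 (SE 0.11, 95% interval -1.02 to -0.47, adjusted p 0.0135 in limma). With shGATA3 the differences were 0.052 (95% interval -0.23 to 0.34) and 0.043 (95% interval -0.23 to 0.32). The shRNA groups were compared directly, and BID was higher with shGATA3 than with shTCF1 by 0.76 (95% interval 0.48 to 1.05, adjusted p 0.0200 in limma) and 0.79 (95% interval 0.52 to 1.07, adjusted p 0.0165 in limma).

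Leaving out single arrays kept the BID difference between -0.82 and -0.61 at the brighter probe. Against control, BID was no longer called once either control array or shTCF1 replicate 1 was omitted, with an adjusted p of up to 0.0927 in limma. Against shGATA3, the same probe was no longer called once either array labelled shGATA3 or shTCF1 replicate 1 was omitted. The second probe, A_33_P3227041, lost its direct call without shGATA3 replicate 2 or either shTCF1 array, with a difference of 0.70 to 0.88 over the fits.

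BCL2L11, which encodes the BH3-only protein BIM and is a mediator of thymocyte deletion, had 3 tested probes that gave different answers. The brightest, A_33_P3251932, read 9.08 and 8.89 on the control arrays, 9.13 and 9.46 on those labelled shGATA3 and 9.17 and 9.14 on those labelled shTCF1. A_24_P122921 read 8.55 and 8.63, 9.38 and 9.13, and 8.83 and 8.96 in that order, and A_33_P3398526 read 8.48 and 8.20, 8.40 and 8.54, and 8.35 and 8.39. At the first 2 of these probes every shRNA array lay above both control arrays, and at the last both shRNA groups overlapped with control. With shGATA3 A_24_P122921 was called higher (log2 difference 0.66, SE 0.13, adjusted p 0.0385 in limma), while the other probes differed by 0.31 (95% interval -0.043 to 0.66, adjusted p 0.235 in limma) and 0.13 (95% interval -0.19 to 0.45, adjusted p 0.554 in limma). The call of A_24_P122921 was lost in all 6 fits that left out 1 array, where the difference was 0.54 to 0.79 and the adjusted p 0.0617 to 0.189 in limma. With shTCF1 the 3 probes differed from control by 0.17, 0.30 and 0.029, and none was called.

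PMAIP1 and BBC3 encode NOXA and PUMA, BH3-only proteins induced by p53. PMAIP1 at A_33_P3619171 read 10.41 and 10.56 on the control arrays, 10.90 and 10.44 on those labelled shGATA3 and 10.59 and 10.63 on those labelled shTCF1. Its differences were 0.19 (95% interval -0.22 to 0.60) and 0.13 (95% interval -0.28 to 0.54), with overlap between shGATA3 and control. BBC3 at A_23_P382775 read 7.62 and 7.67 on the control arrays, 7.47 and 6.80 on those labelled shGATA3 and 8.06 and 7.87 on those labelled shTCF1. The control arrays thus lay between the 2 shRNA groups, with no overlap among the groups. Neither difference from control was called, at -0.51 (95% interval -1.05 to 0.031, adjusted p 0.208 in limma) for shGATA3 and 0.32 (95% interval -0.22 to 0.87, adjusted p 0.339 in limma) for shTCF1. The direct BBC3 difference of -0.84 between shGATA3 and shTCF1 (95% interval -1.38 to -0.29) had an adjusted p of 0.0891 in limma. With 1 array left out it ran from -1.17 to -0.50.

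**Figure D4:**
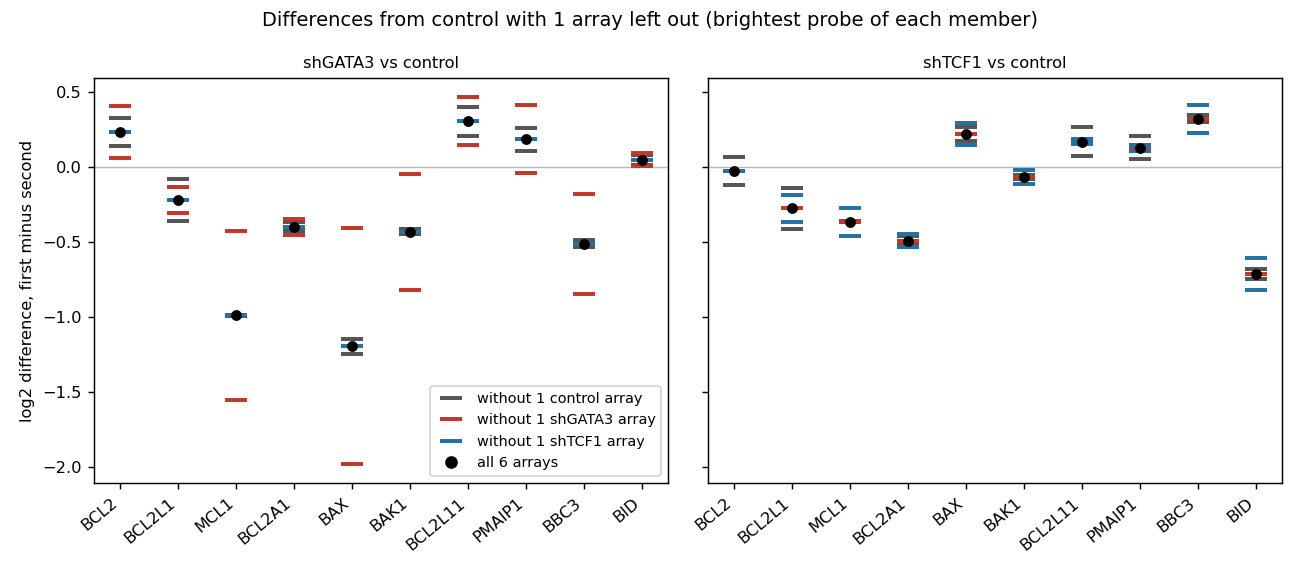
Log2 difference from control (y axis) of the brightest probe of each member (x axis) for shGATA3 and shTCF1, with all 6 arrays (black points) and with 1 array left out (coloured bars, coloured by the group of the array left out). For shGATA3 the values of MCL1 run from -1.55 to -0.42 and those of BAX from -1.98 to -0.41, while BID for shTCF1 runs from -0.82 to -0.61.

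The genes with the most similar profiles over the 6 arrays were sought for the member of each class with the widest range of group means, by Euclidean distance between centred log2 values among 14490 other named genes. For MCL1 they were C1orf216, TNIP2 and GANAB, at distances of 0.214, 0.221 and 0.223. For BAX they were CAPZB, RETSAT and TPM4, at 0.415, 0.464 and 0.468. For BBC3 they were PTK7, H1-10-AS1 and BIN3-IT1, at 0.181, 0.217 and 0.225. No member of the family was among these 9 genes. The profiles of MCL1, BAX and BBC3 include the gap between the arrays labelled shGATA3, so a short distance is not a likeness of group means alone.

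Of 15 other genes of the BCL2 family and its relatives, 14 could be tested. With shGATA3 limma called 2 of them higher, BMF and BIK, and 1 lower, BCL2L15. With shTCF1 BMF was the 1 gene called, higher. These calls were 21.4% of the 14 genes for shGATA3 and 7.14% for shTCF1, beside 6.93% and 16.2% of all named genes. The median log2 difference of the 14 genes was 0.13 for shGATA3 and 0.061 for shTCF1, beside -0.033 and -0.048 for all named genes.

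BMF, a BH3-only protein held at the cytoskeleton in healthy cells, had the largest called rise of these genes. It read 10.02 and 10.15 on the control arrays, 11.23 and 11.37 on those labelled shGATA3 and 10.61 and 10.72 on those labelled shTCF1 at A_23_P379649. The 3 groups did not overlap, and their order was control, shTCF1 and shGATA3. The log2 difference from control was 1.21 for shGATA3 (SE 0.11, adjusted p 0.00620 in limma) and 0.58 for shTCF1 (SE 0.11, adjusted p 0.0246 in limma), and that between the shRNA groups was 0.63 (adjusted p 0.0327 in limma). The second BMF probe, A_33_P3346801, gave 1.04 (adjusted p 0.0109 in limma) and 0.59 (adjusted p 0.0275 in limma). The call of A_23_P379649 for shGATA3 was kept in all 6 fits that left out 1 array. For shTCF1 it was lost in the 4 fits that omitted a control or an shTCF1 array (limma adjusted p up to 0.136), and between the shRNA groups in all 6.

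BIK, another BH3-only gene, read 9.25 and 9.29 on the control arrays, 10.11 and 10.07 on those labelled shGATA3 and 9.56 and 9.79 on those labelled shTCF1. All shRNA arrays were above control, by 0.82 for shGATA3 (SE 0.12, adjusted p 0.0183 in limma) and 0.40 for shTCF1 (adjusted p 0.0626 in limma, not called). BCL2L15, a less studied family member, read 6.94 and 6.74 on the control arrays, 6.06 and 6.21 on those labelled shGATA3 and 7.15 and 7.26 on those labelled shTCF1. The groups lay in the order shGATA3, control and shTCF1 without overlap. The difference was -0.71 for shGATA3 against control (SE 0.12, adjusted p 0.0303 in limma), 0.37 for shTCF1 (adjusted p 0.0923 in limma, not called) and -1.07 for shGATA3 against shTCF1 (adjusted p 0.00828 in limma). For shGATA3 the BIK call was lost in the 4 fits that omitted a control or an shGATA3 array (limma adjusted p up to 0.106) and the BCL2L15 call in all 6 fits (0.0528 to 0.166 in limma).

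BNIP3 and BNIP3L, hypoxia-responsive genes that act in mitophagy, were lower on the arrays labelled shGATA3 by group means. BNIP3 read 8.43 and 10.07 on the control arrays, 6.83 and 6.995 on those labelled shGATA3 and 8.27 and 9.17 on those labelled shTCF1. The control arrays stood 1.64 apart, and the difference of -2.34 for shGATA3 (SE 0.55) was not called (adjusted p 0.0625 in limma). With 1 array left out it ran from -3.15 to -1.52. BNIP3L differed by -0.63 at its brighter probe (adjusted p 0.0787 in limma) and was called lower at its second probe, A_33_P3396951, by -0.99 for shGATA3 (adjusted p 0.0108 in limma) and -0.63 for shTCF1 (adjusted p 0.0205 in limma). These calls were kept in 4 and in 2 of the 6 fits with 1 array omitted, and the first was lost without control replicate 2 or shGATA3 replicate 2.

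**Figure D5:**
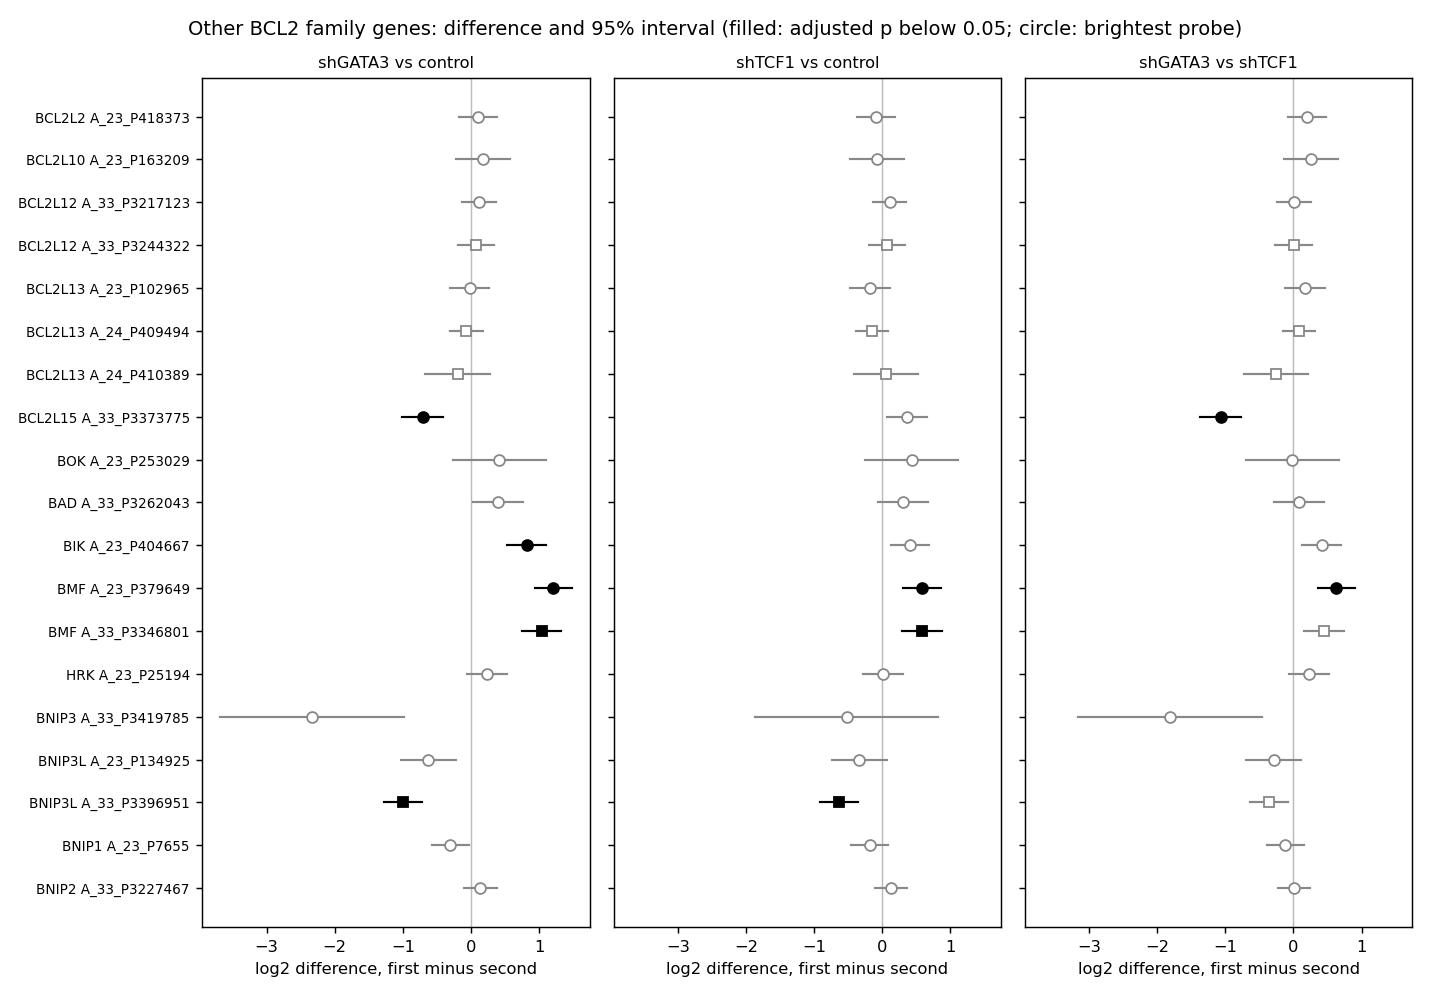
Log2 difference (x axis) with its 95% interval for each tested probe of 14 other BCL2 family genes and relatives (y axis) in the 3 comparisons. Filled symbols have an adjusted p below 0.05 and circles mark the brightest probe of a gene. Both BMF probes are filled in both comparisons with control, at 1.21 and 1.04 for shGATA3 and at 0.58 and 0.59 for shTCF1.

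Downstream and upstream of the family, 31 of 32 genes of the mitochondrial apoptosis machinery could be tested, among them caspases, inhibitors of apoptosis, death receptors and ubiquitin enzymes that act on MCL1. With shGATA3 limma called 0 of the 31 genes, beside 6.93% of all named genes, with 6 at an unadjusted p under 0.05. With shTCF1 it called 2, both lower, which was 6.45% of the 31, beside 16.2% of all named genes. The median log2 difference of the 31 genes was -0.059 for shGATA3 and -0.044 for shTCF1, beside -0.033 and -0.048 for all named genes.

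BIRC3, an inhibitor of apoptosis protein of the NF-kB pathway, read 8.74 and 8.75 on the control arrays, 8.65 and 8.77 on those labelled shGATA3 and 7.55 and 7.78 on those labelled shTCF1. Only the arrays labelled shTCF1 stood apart, by -1.08 against control (SE 0.12, adjusted p 0.00723 in limma), and the direct difference between shGATA3 and shTCF1 was 1.05 (adjusted p 0.00801 in limma). The call against control was kept in all 6 fits that left out 1 array, and the direct call was lost without shGATA3 replicate 2 (adjusted p 0.0528 in limma). USP9X, a deubiquitinase that stabilizes MCL1 protein, read 8.68 and 8.41 on the control arrays, 7.99 and 7.92 on those labelled shGATA3 and 8.04 and 7.75 on those labelled shTCF1. It was below control on all 4 shRNA arrays and called with shTCF1 (-0.65, SE 0.15, adjusted p 0.0368 in limma), a call lost in all 6 fits that left out 1 array (adjusted p 0.0576 to 0.169 in limma).

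Further probes of these genes were called where the brightest probe was not. XIAP, a direct inhibitor of caspases, fell at A_33_P3231187 with shTCF1 by 1.30 on the log2 scale (adjusted p 0.00654 in limma), and this call was kept in all 6 fits that left out 1 array. With shTCF1 limma also called dimmer probes of CASP10 (-0.62), VDAC1 (-0.47) and CFLAR (-0.69) lower. A dimmer probe of the death receptor FAS was called higher with shTCF1 (0.68, adjusted p 0.0199 in limma). It was well above background on only 4 of the 6 arrays, and its call was lost without control replicate 1 or either shTCF1 array. With shGATA3 the same probes of VDAC1 (-0.61) and CFLAR (-0.84) were called lower. With 1 array left out, each of these calls of CASP10, VDAC1 and CFLAR was kept in 2 or 3 of the 6 fits. The brightest probes of XIAP, CASP10, VDAC1, CFLAR and FAS were not called in either comparison. With shTCF1 they differed from control by -0.25 for XIAP, 0.28 for CASP10, 0.061 for VDAC1, 0.068 for CFLAR and 0.12 for FAS. With shGATA3 those of VDAC1 and CFLAR differed by -0.23 and 0.24. The probes of a gene thus differed in size and in some cases in direction, and which transcripts each one reads is not known.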

How the data were processed

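Agilent 1-colour arrays were analysed from the scanner files. The intensity values had been made, per the file headers, with Agilent Feature Extraction 10.7.1.1 (the submitters' processing notes name 9.1), with spot background subtracted and no scaling between arrays. A table of log2 values, deposited too and VSN-normalized per the methods of the authors, served only as an alternative, and 0 columns of per-sample values were left unused. Outlier spots were dropped (71 probes), and a VSN model (trimming quantile 0.9, 7 iterations, 5 strata) was written anew in R 4.3.3. The 31134 of 57176 probes well above background on both arrays of a group were tested with limma 3.58.1 in 1 two-sided fit over 6 arrays with group as its term, with Benjamini-Hochberg adjustment per comparison and calls at an adjusted p below 0.05. SE and interval share 1 spread over the 3 groups, with 3 residual and 2.97 prior degrees of freedom. For 2 arrays against 2 an exact permutation test cannot go below 0.333. The number of arrays limits the precision. Probes were named through RefSeq (GRCh38.p14), which gave 25729 a symbol, and the brightest tested probe stood for a gene. Percentages of control are 2 to the power of the log2 difference.

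The named genes were all 10 members and, of 15 related and 32 machinery genes, those called at the brightest probe. BNIP3, BNIP3L and the genes named from a dimmer probe were chosen after their values were seen. One machinery gene is counted but not reported by name here. The members and lists were chosen with earlier results of these data known. The procedure was tested on simulated data. Alternatives were scalings, background correction, filters, the deposited matrix, fit designs and leaving out single arrays. Slide and scan could not serve as blocks, since all 6 arrays share 1 slide and 1 scan. Promoter windows were searched with Python.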

Additional observations from a re-analysis of the deposited data

How the results depend on the processing

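Counts of called genes changed with the settings, and are given here as members, other family genes and machinery genes in turn (main counts 0, 3 and 0 for shGATA3, 2, 1 and 2 for shTCF1, 1, 2 and 1 for shGATA3 against shTCF1). Leaving out 1 array gave 0 to 3, 1 to 2 and 0 to 1 for shGATA3, 0 to 2, 0 to 1 and 1 to 2 for shTCF1, and 0 to 3, 0 to 2 and 0 to 1 between the shRNA groups. A fit that leaves 1 array in a compared group takes its spread from the other groups, so its count does not measure the spread in that group. Without shGATA3 replicate 1 the differences of MCL1, BAX and BAK1 with shGATA3 were -1.55, -1.98 and -0.82. Normexp background correction gave 2, 5 and 2 for shGATA3, 4 other family and 7 machinery genes for shTCF1, and 2 members and 2 machinery genes between the shRNA groups. An intensity trend in the fit gave 1, 5 and 3 for shGATA3, 2 other family and 7 machinery genes for shTCF1, and 3, 4 and 2 between the shRNA groups. Keeping only probes well above background on all 6 arrays gave 2 machinery genes for shGATA3, 2 other family and 5 machinery genes for shTCF1, and 2 machinery genes between the shRNA groups. Without a filter on dim probes, where more probes are tested, 1 other family gene was called for shGATA3, 1 member, 0 other family genes and 1 machinery gene for shTCF1, and 0 members and 1 other family gene between the shRNA groups. Quantile normalization gave 2 other family genes and 1 machinery gene for shTCF1, and the mean over the probes of a gene gave 5 machinery genes. Calls over all tested probes moved with the settings too, from 2130, 5274 and 1925 in the 3 comparisons of the main fit. They were 4292, 7725 and 3285 after normexp, and 3912, 7343 and 3273 with the intensity trend. Without a filter on dim probes they were 560, 2272 and 901. Among only probes well above background on all 6 arrays they were 2677, 6006 and 2090.

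The deposited matrix gave 0 calls in all 9 counts. It also called 0 of all tested probes in each of the 3 comparisons, so the 9 counts are not particular to these genes. Of the members, 1, 0 and 1 then had an unadjusted p under 0.05 in the 3 comparisons. Its column for control 2 correlated at 0.733 or less with every scanner file. Replicate numbers here are those of the scanner files, and the matrix column named control 1 followed the scanner file of control 2 (r 0.999 against 0.994), as the column named shGATA3 1 followed that of shGATA3 2 (r 0.999 against 0.993). With shTCF1 it turned the difference of BID at A_24_P187948 to 2.53, of BCL2A1 to 0.213, of BIRC3 to 0.429, of XIAP to 0.319 and of VDAC1 to 1.64, and with shGATA3 that of VDAC1 to 1.43. Leaving out the column for control 2, an alternative chosen after seeing the data, gave a BID difference of -0.90 and a BCL2A1 difference of -0.60. That fit rested on 1 control column, so its counts of calls are not given. What set the column for control 2 apart was not tested.

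The replicate numbers do not pair the arrays (correlations of their deviations -0.040, -0.0098 and 0.049). A fit with the replicate number as a block left 1 member called with shTCF1, BID, and called 1328, 3853 and 1285 of the tested probes in the 3 comparisons, against 2130, 5274 and 1925 without it. The share of calls that were higher was 42.1% for shGATA3 and 42.6% for shTCF1 after VSN, and 53.6% and 54.8% after 75th percentile scaling. No slide or scan block was run, as all 6 arrays share both. With 2 arrays per group, the 95% interval of a member reached 0.251 to 1.15 log2 units to either side of its difference. The intervals are not adjusted for the number of probes, so a difference larger than this reach could still go uncalled. BCL2A1 with shGATA3 was such a case (-0.40, 95% interval -0.65 to -0.15, adjusted p 0.0761 in limma).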
